A study of Mus musculus with 8 samples.

Results

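Interferon regulatory factors (IRFs) are DNA-binding proteins that switch genes on or off after interferon and pathogen signals, and some of them also steer the development of blood cells. The 7 genes Irf1, Irf2, Irf3, Irf4, Irf5, Irf8 and Irf9 were taken by symbol from the mRNA table, where they are 7 of 22298 genes, and all of them had counts in every library. B-lineage cells of 4 stages, from pro-B to mature B cells, had been sorted from the bone marrow of female wild-type C57BL/6 mice aged 8 to 10 weeks. Pro-B cells were gated as B220+IgM-CD43+, pre-B cells as B220+IgM-CD43-, immature B cells as B220+IgM+CD43- and mature B cells as B220hi IgM+CD43-, each from living cells. The cells of 3 mice were pooled for each stage, and 1 rRNA-depleted RNA library was sequenced per stage, so the stages were compared without replicates and no p-value is given.

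All IRFs share a DNA-binding domain that reads GAAA-type elements, and they differ in what turns them on and in the partners they bind. Irf4 and Irf8 take part in the development of B cells. They bind composite elements together with the ETS factors PU.1 (Spi1) and Spi-B, and act together at the pre-B stage, when the light chain is rearranged. Irf1 and Irf2 are an activator and an antagonist at the same elements, Irf9 is the DNA-binding subunit of the complex that answers type I interferon, and Irf3 and Irf5 wait in the cytoplasm until kinases downstream of pathogen sensors phosphorylate them.

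The libraries differed in their mRNA counts. The mRNA total was 867920 counts at the pro-B stage, 240231 at the pre-B stage, 223495 for immature and 849350 for mature B cells, and the 7 Irf genes together had 1608, 264, 309 and 1438 of them. The counts of the lncRNA table went the other way, with between 2765507 and 3469757 per library, so that mRNA counts made up 23.7%, 6.48%, 6.48% and 23.5% of the counts of both tables. Levels are given as counts and as CPM, each count divided by the library's mRNA total and scaled to 1e6. Every interval is an exact 95% interval for counting error only, since copies of a molecule made by PCR cannot be recognised. It takes each count as independent. The reads were paired-end, and many low counts were even, such as those of Batf (4, 0, 2 and 0). If both mates of a fragment were counted, the intervals are too narrow, which was not tested. The limit that 0 counts allow is 3 counts, which is 3.46, 12.5, 13.4 and 3.53 CPM in the order of the stages.

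CPM depends on what else fills a library. The 10 genes with the highest summed counts held 5.37%, 12.5%, 12.5% and 6.01% of the mRNA counts in the order of the stages. Slc38a6 was among them, with 6753, 7407, 4906 and 7171 counts, which did not follow the library totals. Nor did Tmem72 (4254, 4454, 4791 and 4154), Noct (3442, 4318, 4786 and 4672), mt-Nd6 (2874, 2798, 2576 and 2692) and D10Wsu102e (2233, 2478, 2310 and 2449). Others among them did follow the totals, such as mt-Co1 (9848, 2905, 2416 and 11278) and Eef1a1 (5112, 742, 651 and 6227). On the FPKM scale of the authors, which divides by transcript length and by a library total of theirs, the FPKM of all mRNAs came to 75584, 23366, 23544 and 76880. A low FPKM in the pre-B and immature libraries was therefore shared by most genes, and ratios are given below beside the median of all genes.

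Marker genes followed the labels in part. The 5 genes of the pro-B list (Dntt, Igll1, Vpreb1, Il7r and Kit) summed to 2081 CPM in the pro-B library and to 142, 44.7 and 11.8 in the later stages. Of the pre-B list (Rag1, Vpreb3, Rag2, Il2ra) the sum was 1278 CPM at the pro-B and 1066 at the pre-B stage, so it did not set the pre-B library apart from the pro-B library, and it was 576 and 15.2 CPM afterwards. From pro-B to pre-B cells Rag1 went from 918 to 372 CPM. Rag2 (109 to 316), Vpreb3 (182 to 295) and, within counting error, Il2ra (68.0 to 83.3) went up on CPM, while on FPKM all 4 fell. The immature B genes, led by Ighm, summed to 4337, 7530, 9504 and 5087 CPM in the order of the stages. The mature B genes, with Ighd and Fcer2a among them, reached 4645 CPM in mature B cells and at most 944 before. Of the whole lineage, 4 genes (Cd79a, Cd79b, Pax5 and Ebf1) summed to between 3434 and 5075 CPM. These sums turn with the scale, since the FPKM of the immature B list came to 399, 199, 264 and 525 and that of the 4 lineage genes to 246, 103, 148 and 316 in the order of the stages, highest in mature B cells in both lists.

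Irf8 was high in pro-B cells, low in pre-B cells and, on CPM, intermediate afterwards. It drives the fate of dendritic cells and restrains that of granulocytes, and in B cells it takes part in early commitment and in germinal centres. Irf8 had 783 counts (902 CPM, 840.1 to 967.6) in pro-B, 59 (246 CPM, 187 to 317) in pre-B, 132 (591 CPM, 494 to 700.4) in immature B and 536 (631 CPM, 579 to 687) in mature B cells. The pre-B library was the lowest, and the interval of its CPM met that of no other stage. From pro-B to pre-B cells the CPM of Irf8 fell 3.67-fold (2.82 to 4.87), and from pre-B to immature B cells it rose 2.40-fold (1.76 to 3.33). In mature B cells it lay 1.43-fold below pro-B cells (1.28 to 1.60), while immature and mature B cells did not differ beyond counting error on CPM (1.07-fold, 0.882 to 1.303). On FPKM these stages stood at 9.36 and 36.3, a log2 ratio of 1.95, where the median of all genes was 2.16.

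Irf4 moved less than Irf8 until the mature stage. It is needed for light chain rearrangement and later for class switching and plasma cells. Irf4 had 307 counts (354 CPM, 315 to 396) in pro-B, 59.4 (247 CPM, 187 to 317) in pre-B, 44.8 (201 CPM, 147 to 269) in immature B and 424 (499 CPM, 453 to 549) in mature B cells. It was highest in mature B cells and second in pro-B cells (1.41-fold lower, 1.22 to 1.64), and pre-B and immature B cells were not told apart (1.23-fold, 0.814 to 1.84). On CPM the step from immature to mature B cells was the only one past 2-fold, with a 2.49-fold higher value (1.82 to 3.45), but against the median of all genes its log2 ratio was 0.95, under 2-fold. On FPKM, Irf4 in this step stood 1.08 above the median of all genes on the log2 scale, past 2-fold. From pro-B to pre-B cells its log2 CPM ratio was -0.52 (-0.95 to -0.12), almost at the median of all genes, which was -0.56. On FPKM the ratio was -2.45, past 2-fold and again near the median of all genes (-2.39).

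Since the pair share targets, their counts were also compared within each library, where no scaling enters. This share was chosen after the values were seen. Irf4 made up 28.2% of the counts of Irf4 and Irf8 at the pro-B stage (25.5% to 30.9%, Clopper-Pearson), 50.2% at the pre-B stage (40.7% to 59.3%), 25.4% at the immature (19.2% to 32.5%) and 44.2% at the mature stage (41.0% to 47.4%). The share was thus higher in pre-B and mature B cells than in pro-B and immature B cells, with no overlap of the intervals between these pairs of stages. Per length, on the FPKM scale, Irf8 stayed above Irf4 in each library, by 4.41 times in pro-B, 1.72 in pre-B, 5.23 in immature B and 2.15 in mature B cells.

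**Figure D1:**
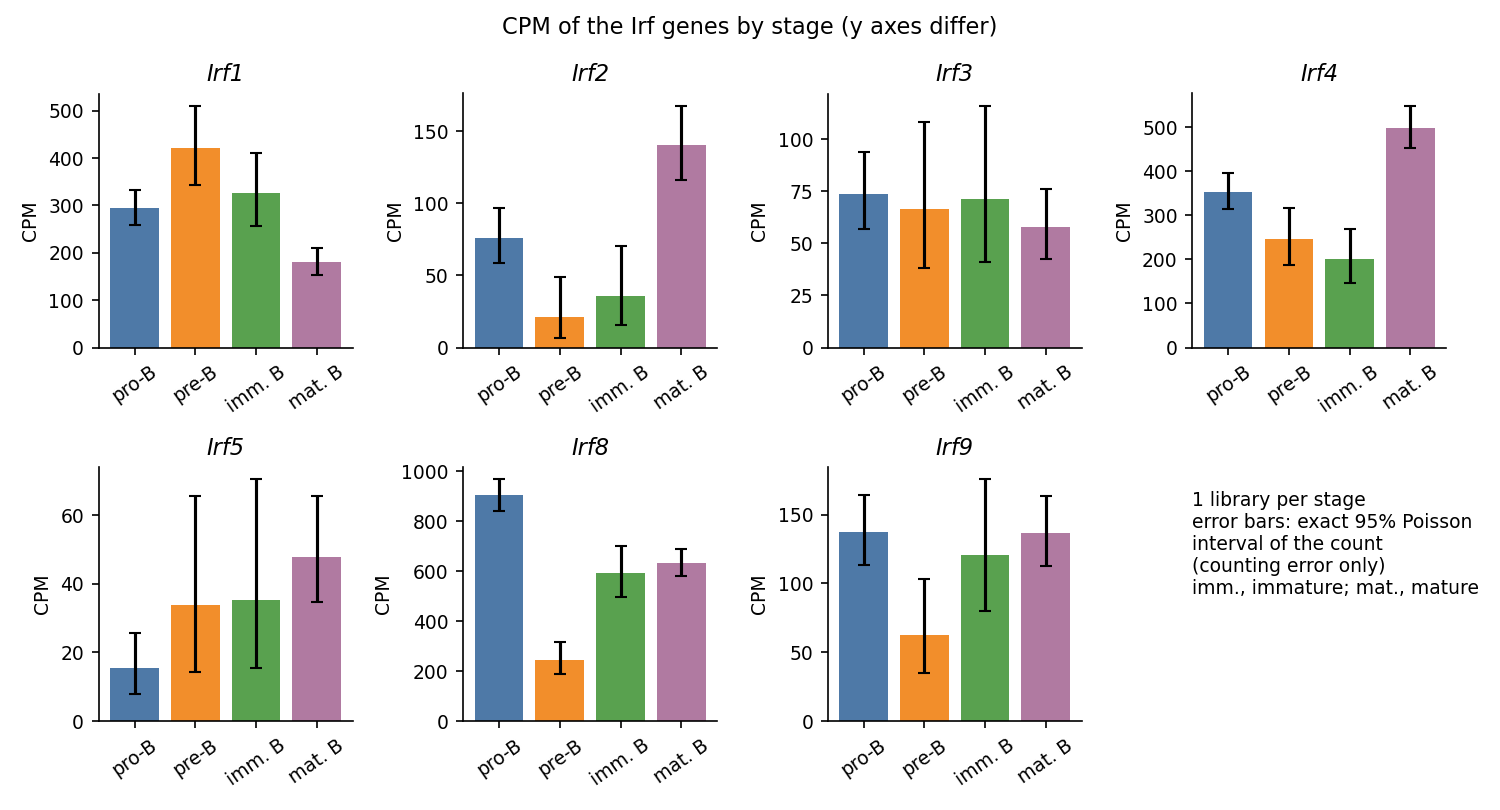
CPM of each Irf gene (y axis, scaled to the mRNA total, scales differ) in the 4 stages (x axis, 1 library each), with exact 95% Poisson intervals of the count as error bars. Irf8 dips in pre-B cells to 246 CPM, Irf2 and Irf4 are highest in mature B cells with 140.1 and 499 CPM, and the intervals of Irf3 overlap in all stages.

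Irf1 and Irf2 ran in opposite directions on CPM, though from pre-B to immature B cells both ratios were within counting error. On FPKM both fell from pro-B to pre-B cells (log2 ratios of -1.29 and -4.63) and both rose from immature to mature B cells (0.94 and 4.38), while between mature B and pro-B cells their signs differed on CPM (-0.71 and 0.88) and on FPKM (-0.57 and 0.57). Irf1, a gene induced by interferon gamma, had 255 counts (294 CPM, 259 to 332) in pro-B, 101 (420.4 CPM, 342 to 511) in pre-B, 73 (327 CPM, 256 to 411) in immature B and 153 (180.1 CPM, 153 to 211) in mature B cells. On CPM it was lowest in mature B cells, 1.63-fold below pro-B cells (1.33 to 2.01), whereas on FPKM it was lowest in immature B cells (10.7) and mature B cells (20.6) came after pro-B cells (30.6). On CPM the order of the other stages was not settled, since pre-B and immature B cells (1.29-fold, 0.943 to 1.76) and immature B and pro-B cells (1.11-fold, 0.845 to 1.45) did not differ beyond counting error. Pre-B cells did lie above pro-B cells on CPM, with a log2 ratio of 0.52 (0.17 to 0.85), and against the median of all genes it was 1.08 on CPM and 1.11 on FPKM. No step of Irf1 reached 2-fold on CPM.

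Irf2 had 66 counts (76.0 CPM, 58.8 to 96.7) in pro-B, 5 (20.8 CPM, 6.76 to 48.6) in pre-B, 8 (35.8 CPM, 15.5 to 70.5) in immature B and 119 (140.1 CPM, 116 to 168) in mature B cells. Its CPM was 3.65-fold lower at the pre-B than at the pro-B stage (1.49 to 11.6) and 3.91-fold higher in mature than in immature B cells (1.92 to 9.28), both wide intervals that rest on 5 and 8 counts. Pre-B and immature B cells could not be told apart (1.72-fold, 0.496 to 6.68). Without those libraries of low mRNA count, mature B cells stood 1.84-fold above pro-B cells (1.35 to 2.53), under 2-fold on CPM. The ratio was past 2-fold with TMM and median-of-ratios scaling, where the log2 ratios were 1.03 and 1.06.

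Within the libraries, Irf1 took 79.4% of the counts of Irf1 and Irf2 at the pro-B stage (74.6% to 83.7%), 95.3% at the pre-B stage (89.3% to 98.5%), 90.1% at the immature (81.5% to 95.6%) and 56.2% at the mature stage (50.1% to 62.2%). On FPKM, Irf1 stood 3.35, 33.9, 16.5 and 1.52 times above Irf2 in the order of the stages, in part because counts per unit of FPKM, which track the transcript length assigned to a gene, shifted for Irf2 (7.23, 13.5, 12.3 and 8.78) more than for Irf1 (8.34, 8.06, 6.8 and 7.44). The activator and its antagonist were thus nearest to even in mature B cells, where the interval of the share met that of no other stage.

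Irf9 had 119 counts (137 CPM, 114 to 164) in pro-B, 15 (62.4 CPM, 34.9 to 103) in pre-B, 27 (121 CPM, 79.6 to 176) in immature B and 116 (137 CPM, 113 to 164) in mature B cells. The low pre-B value was its feature, 2.196-fold below pro-B cells (1.28 to 4.05), and on CPM the other stages were alike, with mature B over pro-B cells at 0.996 (0.765 to 1.297). On FPKM Irf9 stood at 9.34, 0.98, 1.89 and 9.1 in the order of the stages, so immature B cells lay nearer to pre-B than to mature B cells there, and the log2 ratio of mature over immature B cells was 2.27, near the median of all genes (2.16). The rise to immature B cells, 1.93-fold, had an interval from 0.993 to 3.91. With median-of-ratios scaling the fall from pro-B to pre-B cells was 0.96 on the log2 scale, just under 2-fold, and it was 0.57 beyond the median of all genes.

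Irf3, which induces interferon beta once phosphorylated and is known for steady mRNA levels, had 64 counts (73.7 CPM, 56.8 to 94.2) in pro-B, 16 (66.6 CPM, 38.1 to 108) in pre-B, 16 (71.6 CPM, 40.9 to 116) in immature B and 49 (57.7 CPM, 42.7 to 76.3) in mature B cells. No neighbours in this order differed beyond counting error on CPM, and mature B over pro-B cells gave a ratio of 0.782 (0.528 to 1.15). On FPKM Irf3 stood at 10, 2.22, 4.55 and 9.52. Its log2 FPKM ratio from pro-B to pre-B cells was -2.17, where the median of all genes was -2.39. A difference of up to about 2-fold in the pre-B library was not detectable at these counts. The interval of its ratio to pro-B cells ran from 0.487 to 1.58.

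The CPM of Irf5 increased in order from pro-B to mature B cells, on few counts. It acts downstream of MyD88 and is used by B cells in antibody class switching. Irf5 had 13.4 counts (15.5 CPM, 7.98 to 25.6) in pro-B, 8.15 (33.9 CPM, 14.4 to 65.6) in pre-B, 7.91 (35.4 CPM, 15.5 to 70.5) in immature B and 40.6 (47.8 CPM, 34.6 to 65.5) in mature B cells. Neighbours in this order did not differ, but mature B cells stood 3.09-fold above pro-B cells (1.69 to 6.56). This comparison leaves out both libraries of low mRNA count. The ratio of pre-B to pro-B cells, 2.19-fold, had an interval from 0.799 to 5.79. Counts per unit of FPKM were 12.2, 3.33, 3.63 and 11.8 in the order of the stages, so FPKM and counts of Irf5 do not compare the stages on the same length. The quotient also shifted for Irf2, as given above, and for Irf3 (6.4, 7.21, 3.52 and 5.15), while for Irf4 it lay between 25.0 and 27.4.

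On FPKM, which carries these shifts of length for Irf2, Irf3 and Irf5, the ranking of the family also changed with stage. Irf8 had the highest FPKM in pro-B (52.3) and mature B cells (36.3), and Irf1 was second there with 30.6 and 20.6. In pre-B and immature B cells Irf1 came first, with FPKM of 12.5 and 10.7, ahead of Irf8 with 3.74 and 9.36. Irf2 was last in both of those libraries, with FPKM of 0.37 and 0.65. Irf5 was last in pro-B (1.1) and mature B cells (3.43).

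As a share of all 7 genes' counts, which again needs no scaling, Irf1 took 15.9% at the pro-B stage (14.1% to 17.7%), 38.3% at the pre-B stage (32.4% to 44.4%), 23.6% at the immature (19.0% to 28.8%) and 10.6% at the mature stage (9.09% to 12.3%). Irf8 took 48.7%, 22.4%, 42.8% and 37.3%, and Irf4 19.1%, 22.5%, 14.5% and 29.5%. Of the 4 libraries, the pre-B library thus had the largest share of Irf1 and the smallest of Irf8, and the mature library the largest shares of Irf4 and of Irf2 (8.28%).

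**Figure D2:**
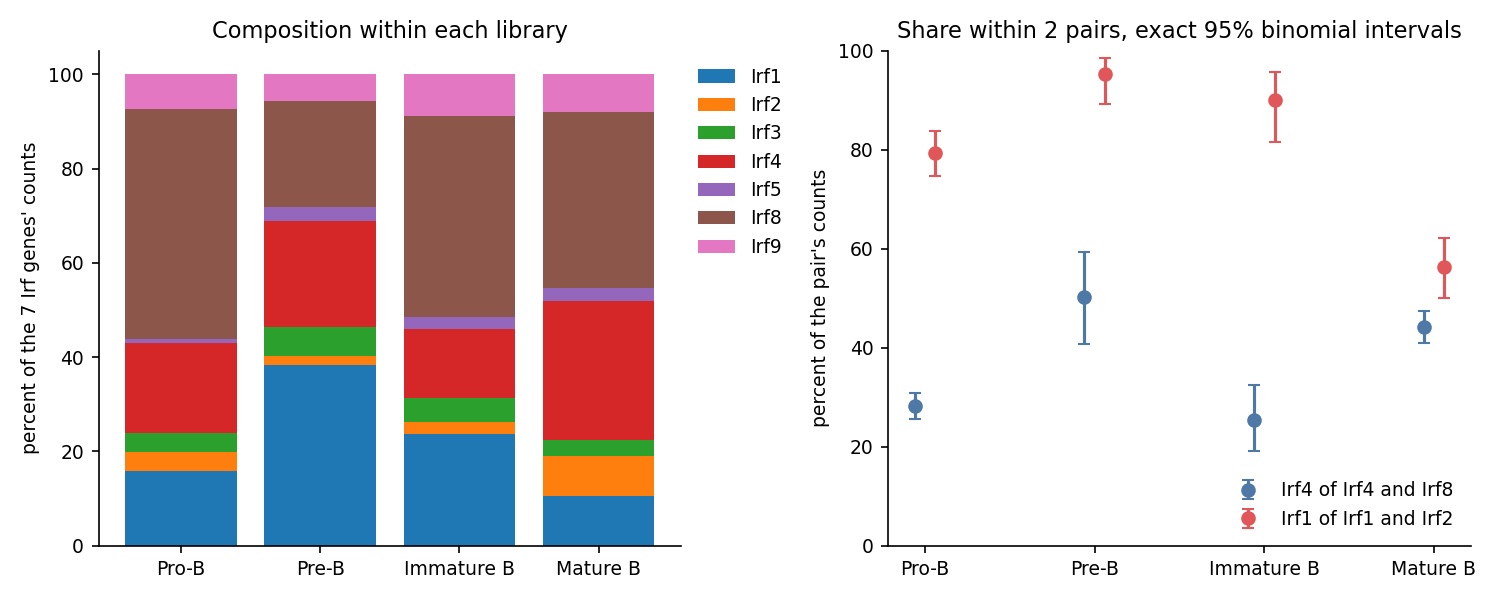
Left, share of the counts of the 7 Irf genes taken by each (y axis, percent) in the 4 libraries (x axis). Right, share of Irf4 in the counts of Irf4 and Irf8 and of Irf1 in those of Irf1 and Irf2 (y axis, percent) with exact 95% binomial intervals. Irf1 takes 38.3% of the family in pre-B and 10.6% in mature B cells, and Irf4 takes 50.2% of its pair in pre-B and 25.4% in immature B cells.

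Relatives outside the 7 genes were measured too. Irf7, the main inducer of interferon alpha in plasmacytoid dendritic cells, had 7.92 counts at the pro-B stage and 0 afterwards. The co-repressor genes named for binding Irf2 went separate ways on CPM, while on FPKM all of them fell up to immature B cells and rose in mature B cells. Irf2bp2 had 624, 260, 209 and 421 counts (719, 1082, 935 and 496 CPM) and Irf2bp1 44, 10, 8 and 44 counts (50.7, 41.6, 35.8 and 51.8 CPM). Irf2bpl had 27, 12, 4 and 125 counts, and its CPM in mature B cells was 4.73-fold that in pro-B cells (3.10 to 7.46), past 2-fold as with Irf5.

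The number of Irf genes past a 2-fold CPM ratio was set beside that of all genes, where the larger of the compared counts had to be at least 10. From pro-B to pre-B cells 1 of 7 was higher (Irf5) and 3 were lower (Irf2, Irf8 and Irf9). Of the 9152 genes tested 14.8% were higher and 37.9% lower, so the Irf genes were not apart from the background. With median-of-ratios scaling 1 was higher and 2 were lower, against 17.7% and 33.7% of all genes. On FPKM 1 was higher and 6 were lower, and so were 2.57% and 81.5% of all genes, whose median log2 ratio was -2.39 on that scale against -0.56 on CPM.

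From pre-B to immature B cells 5 of the 7 genes reached 10 counts, of which 1 was higher (Irf8) and 0 lower, against 18.9% and 20.2% of 5838 genes. From immature to mature B cells 2 of 7 were higher (Irf2 and Irf4) and 0 lower, where 32.5% of 8363 genes were higher and 18.1% lower on CPM. Median-of-ratios scaling gave the same counts for the Irf genes, with 32.5% and 18% of all genes. On FPKM 5 were higher and 0 lower, with 77.4% and 3.35% of all genes. Between the libraries with more mRNA counts, mature B against pro-B cells, 1 of 7 was higher (Irf5) and 0 lower, against 13.2% and 24.2% of 9634 genes. TMM or median-of-ratios scaling added Irf2. These shares lie near the background for a list of 7.

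Relative to the median of all genes, which was -0.56, -0.02, 0.37 and -0.19 on log2 CPM in the order of the comparisons, Irf8 still fell by 1.32 from pro-B to pre-B cells and Irf2 by 1.31, while Irf5 lay 1.70 and Irf1 1.08 above it. Irf4 lay at 0.04 there. From immature to mature B cells Irf2 lay 1.60 and Irf4 0.95 above the median, and Irf1 lay at -1.23. The direction of Irf2, Irf8 and Irf9 from pro-B to pre-B cells and of Irf2 and Irf4 from immature to mature B cells was the same under CPM, TMM, median-of-ratios and FPKM. That of Irf1 turned on FPKM in both steps, and Irf3, whose ratios were within counting error, also changed sign with the scale in both (its log2 FPKM ratio was 1.07 from immature to mature B cells). Median-of-ratios scaling moved the median of all genes to -0.38 and -0.01 in the comparisons with pro-B cells, and TMM moved it to -0.04 in mature B against pro-B cells.

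**Figure D3:**
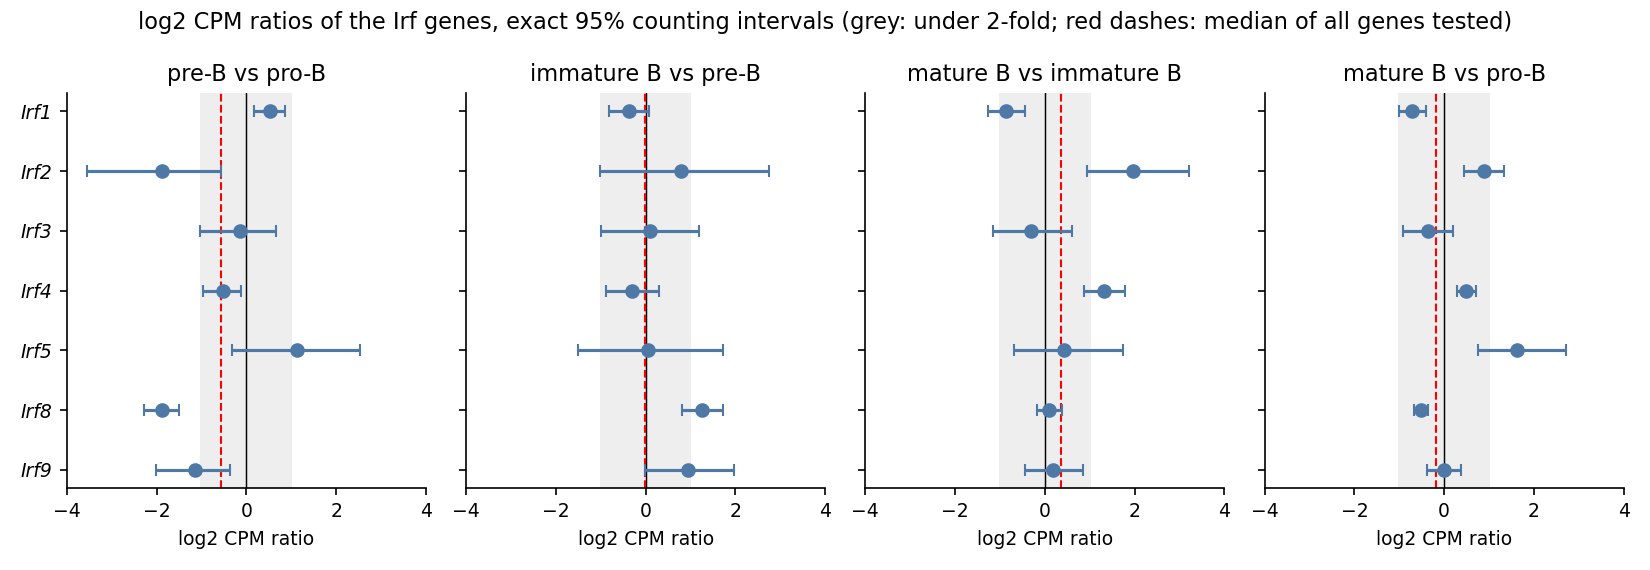
log2 CPM ratios (x axis) of the 7 Irf genes (y axis) in the 4 comparisons, with exact 95% counting intervals. Grey marks ratios under 2-fold and the red dashes the median of all genes tested (-0.56, -0.02, 0.37 and -0.19 from left to right). Irf8 falls by 1.88 from pro-B to pre-B cells, and Irf4 rises by 1.32 from immature to mature B cells, where the lower end of its interval (0.86) lies under 2-fold.

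**Figure D4:**
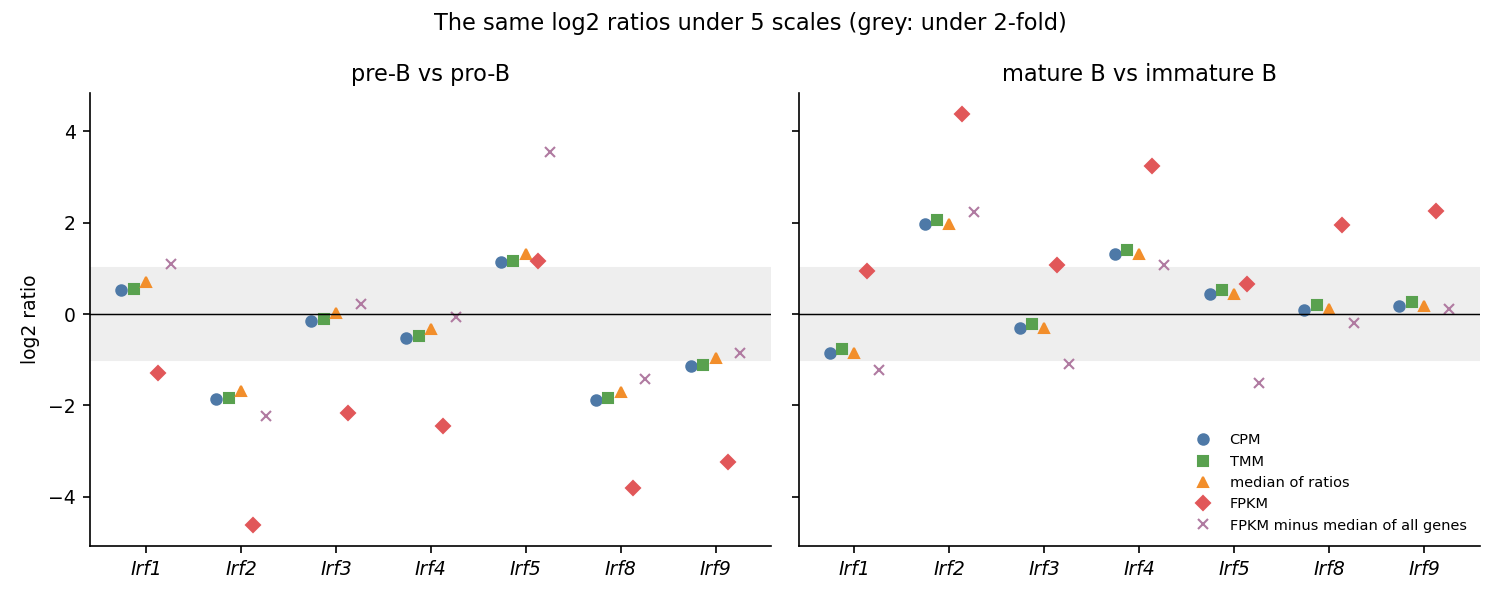
log2 ratios (y axis) of the 7 Irf genes (x axis) for pre-B against pro-B and mature B against immature B cells on 5 scales, with 1 symbol per scale and grey for ratios under 2-fold. FPKM shifts most genes downwards in pre-B cells (Irf8 to -3.81) and upwards in mature B cells (Irf2 to 4.38), and Irf1 changes sign between CPM and FPKM.

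Receptors and kinases that feed the IRFs were low in pre-B cells more often than high, as all genes were. Of 8 genes of interferon receptors and JAK-STAT signaling, 5 were lower from pro-B to pre-B cells and 1 higher (Ifngr2, whose FPKM was lower, 3.47 and 1.97), beside 37.9% lower and 14.8% higher of all genes, and the median log2 ratio was -1.29 against -0.56 over all genes. On FPKM all 8 fell in this step, and 81.5% of all genes were past 2-fold lower. Jak2 had 128, 4, 24 and 183 counts in the order of the stages, and its CPM was 8.86-fold lower at the pre-B than at the pro-B stage. Ifnar1, the type I interferon receptor chain that binds Tyk2, had 179, 7, 24 and 149 counts (7.08-fold lower), and Tyk2 itself had 90, 4, 5 and 67. From immature to mature B cells 4 were higher (Ifngr1, Jak1, Jak2 and Tyk2) and 1 lower (Ifnar2, whose FPKM was 1.94 and 2.42), beside 32.5% and 18.1% of all genes. Stat2, a partner of Irf9, had 87, 13, 15 and 63 counts and did not pass 2-fold on CPM in any comparison, while its FPKM was 3.64, 0.51, 0.65 and 2.71. From pre-B to immature B cells 2 of 7 measured genes were higher (Ifnar1 and Jak2) and 0 lower, beside 18.9% and 20.2% of all genes, and between mature B and pro-B cells 0 were higher and 1 lower (Ifnar2), beside 13.2% and 24.2%.

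Of the 12 adaptors and kinases upstream of Irf3, Irf5 and Irf7, 7 were lower from pro-B to pre-B cells and 1 was higher, beside 37.9% and 14.8% of all genes. With counts of 0 set to 3 the lower ones were 6, without Ikbke (20 and 0 counts), beside 31.4% of all genes, and the median log2 ratio was -1.26 against -0.56 over all genes. Tbk1, a kinase of Irf3, had 98, 4, 11 and 114 counts (6.78-fold lower in pre-B cells). Ticam1, the adaptor of Toll-like receptor 3, had 37, 0, 6 and 28 counts and was at least 3.41-fold lower against 3 counts. The exception was Irak4, with 99, 93, 79.2 and 115 counts, nearly even in number, which made it 3.39-fold higher on CPM in pre-B cells, while its FPKM was 5.4 and 4.74. In the next steps 3 of 8 were higher and 1 lower (18.9% and 20.2% of all genes), then 3 of 11 higher and 2 lower (32.5% and 18.1%), and in each of these steps 2 of the called genes had the other sign on FPKM. Between mature B and pro-B cells 1 of 12 was higher, Traf3 with 154 against 49 counts, and 3 were lower (Myd88, Traf6 and Ikbke), beside 13.2% and 24.2% of all genes.

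The genes of DNA-binding partners of Irf4 and Irf8 differed by scale in the step from pro-B to pre-B cells. On CPM 6 of 8 measured lay above pro-B cells and 2 below (Jun and Ikzf1), with 2 past 2-fold higher (Spi1 and Jund) and 0 lower beside 14.8% and 37.9% of all genes, and the median log2 ratio was 0.57 against -0.56. On FPKM all 8 fell, among them Spi1 (3.26 and 1.8), Jund (107 and 62.0), Spib (36.7 and 16.3) and Ikzf1 (49.9 and 6.97). On that scale 81.5% of all genes were past 2-fold lower, and their median log2 ratio was -2.39. Ikzf1 fell by more than this median, and Spi1, Jund and Spib fell by less. Spi1 had 36, 21, 17 and 61 counts (41.5, 87.4, 76.1 and 71.8 CPM). Spib had 298, 139, 152 and 140.3 counts (344, 577, 682 and 165 CPM), and it was 4.13-fold lower on CPM in mature than in immature B cells, the step in which Irf4 rose, though its FPKM was 21.98 and 22.94. In that step Junb was 2.09-fold higher, so 1 of 8 was higher and 1 lower beside 32.5% and 18.1% of all genes, and from pre-B to immature B cells 0 were higher and 2 lower (Jun and Tcf3) beside 18.9% and 20.2%. Between mature B and pro-B cells 2 were higher (Junb and Ikzf3) and 3 lower (Spib, Jun and Tcf3), beside 13.2% and 24.2%. Batf had 4, 0, 2 and 0 counts and Batf3 had 0 in each library.

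Genes known as targets of Irf4 and Irf8 in B-lineage cells moved in both directions. Of the 10, Igll1, Vpreb1, Igkc, Prdm1, Ikzf1 and Ikzf3 also stand in other lists here. From pro-B to pre-B cells 4 of 8 measured were lower (Igll1, Vpreb1, Bcl6 and Ciita) and 1 higher (Igkc), beside 37.9% and 14.8% of all genes. Igll1, part of the surrogate light chain, had 427 counts in pro-B cells and 0 in each later stage, at least 39.4-fold lower in pre-B cells. Igkc, the kappa constant gene, had 26.0, 38.1, 129 and 286 counts (29.98, 159, 579 and 336 CPM). Ciita, which controls MHC class II genes, had 43.4, 3.36, 2.84 and 563 counts, and its CPM in mature B cells was 13.3-fold that in pro-B cells. Ikzf3 (Aiolos) had 268, 362, 506 and 942 CPM, an order that FPKM did not share (15.1, 5.3, 5.87 and 50.2). From pre-B to immature B cells 2 of 5 were higher (Igkc and Bcl6), from immature to mature B cells 2 of 6 (Bcl6 and Ciita), with 0 lower in either, where 18.9% and then 32.5% of all genes were higher and 20.2% and 18.1% lower. Between mature B and pro-B cells 4 of 8 were higher and 2 lower, beside 13.2% and 24.2% of all genes, with a median log2 ratio of 1.11 against -0.19 over all genes.

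Targets of the complex that Irf9 forms after type I interferon were scarce. The 12 genes had at most 50.8 counts in a library, save Bst2, which had 259, 18, 40 and 38. From pro-B to pre-B cells 0 of 11 measured were higher and 5 lower (Ifit2, Ifit3, Oasl2, Rsad2 and Bst2), beside 14.8% and 37.9% of all genes. The fall of Ifit3, with 11 and 0 counts, was within counting error. With counts of 0 set to 3 the lower ones were 4, beside 31.4% of all genes, with a median log2 ratio of -0.22 that lay above the -0.56 of all genes. On FPKM all 11 fell, where 81.5% of all genes were past 2-fold lower. Ifit2 had 50.8, 0, 2 and 17.6 counts, at least 4.69-fold lower in pre-B cells. From pre-B to immature B cells 2 of 4 were higher (Oas2 and Bst2) and 0 lower (18.9% and 20.2% of all genes), from immature to mature B cells 3 of 9 were higher and 5 lower (4 of which, Mx1, Oas2, Usp18 and Bst2, were higher on FPKM) beside 32.5% and 18.1%, and between mature B and pro-B cells 1 was higher and 5 lower beside 13.2% and 24.2%. Oas2 had 23, 10, 25 and 35 counts, with 112 CPM in immature B and 41.2 CPM in mature B cells. Of the interferons, Ifnb1 and Ifna4 had 0 counts in each library and Ifng 20, 0, 2 and 0.

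The gates used B220. Markers of plasmacytoid dendritic cells, which carry B220, and of T and NK cells had their highest summed CPM in the pro-B library. The CPM of Irf8 was highest there too. Irf7 had counts there alone (9.13 CPM), but its 0 counts allow up to 12.5 CPM in pre-B and 13.4 CPM in immature B cells. All 6 plasmacytoid dendritic cell genes had counts in pro-B cells and 5 of them in immature B cells, where Cd300c stood higher (8.95 against 2.30 CPM, 2 counts each), and the list summed to 636, 133, 304 and 115 CPM in the order of the stages. Its most abundant gene there was Bst2, which is also an interferon target, and 3 of the 6 (Bst2, Ccr9 and Pacsin1) had counts in mature B cells too, with 38, 40 and 20. Siglech had 105, 0, 4 and 0 counts, and Cox6a2 had 10 in pro-B cells and 0 elsewhere. The 6 T and NK genes summed to 205, 0, 0 and 5.89 CPM, led by Gzma with 106 counts in pro-B cells, with Cd3e at 0 there. The part of such cells in the pro-B level of Irf8 and in the 7.92 counts of Irf7 was not tested. In bulk RNA, fewer cells of a type and less RNA per cell cannot be told apart.

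Lists for further cell types were summed in the same way. The 5 conventional dendritic cell genes summed to 127, 112, 53.7 and 16.5 CPM. Zbtb46 had 22, 16, 8 and 8 counts, Itgax (35) and Flt3 (34) stood above it in pro-B cells, and Clec9a was at 0 outside pro-B cells. The 8 myeloid genes summed to 1060, 1120, 926 and 843 CPM, led by Lyz2 save in immature B cells, where S100a8 led, with Csf1r and Cd14 at 0 in each library. The 5 plasma cell genes summed to 316, 375, 282 and 111 CPM, led by Xbp1, with Tnfrsf17 at 0 in each library. On FPKM Xbp1 (4.67 and 9.91) and Sdc1 (0.73 and 2.55) were higher in mature than in immature B cells. The 6 erythroid genes summed to 429, 395, 266 and 223 CPM, led by Hbb-bs in pro-B and mature B cells and by Hba-a2 in the others. On FPKM the myeloid list summed to 210, 65.7, 49.6 and 153, so its even level holds on CPM alone. The FPKM of the erythroid list came to 108, 26.5, 19.45 and 56.3, and that of the conventional dendritic cell list to 5.23, 1.36, 0.46 and 0.67.

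**Figure D5:**
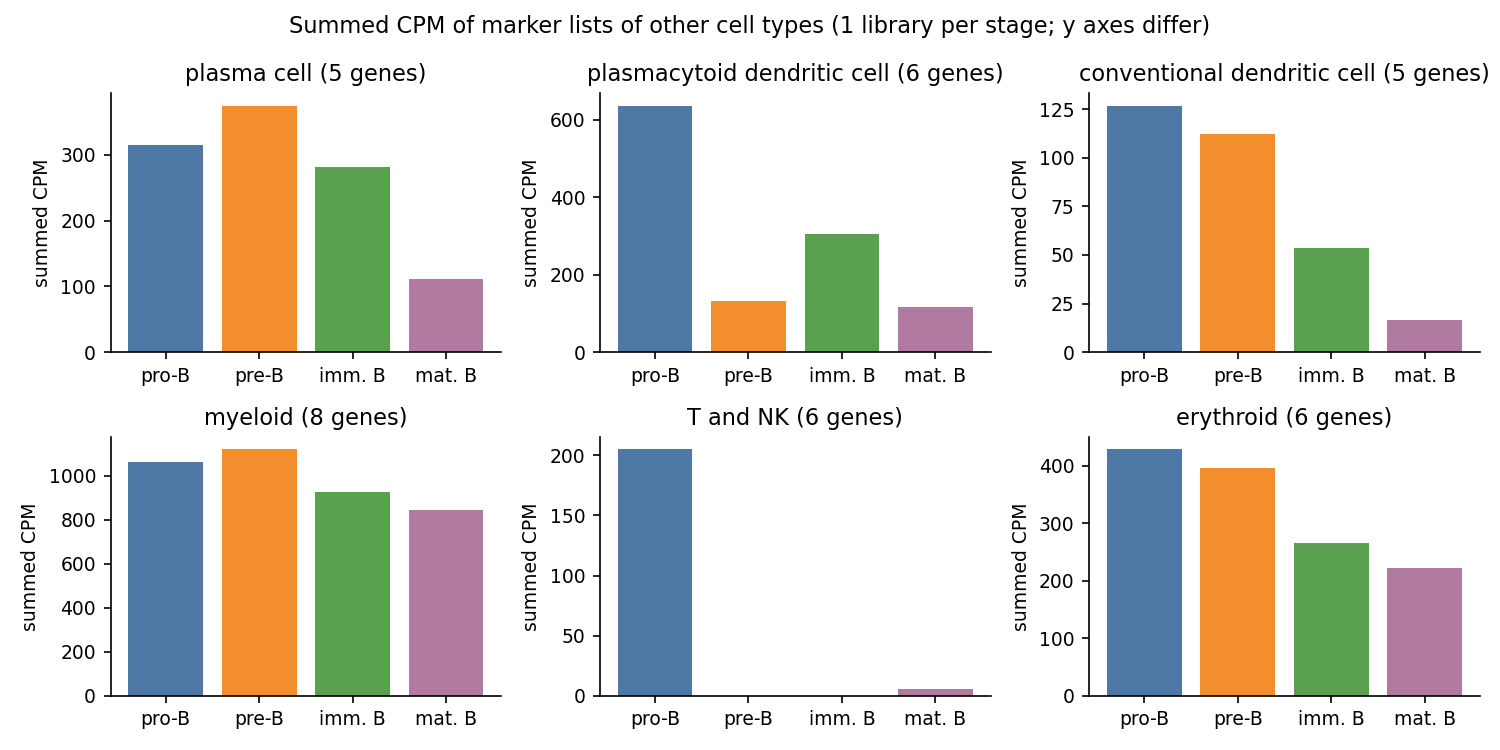
Summed CPM (y axis, scales differ) of the marker lists of 6 other cell types in the 4 libraries (x axis). The plasmacytoid dendritic cell list stands at 636 CPM and the T and NK list at 205 CPM in pro-B cells, against 115 and 5.89 in mature B cells, while the myeloid list lies between 843 and 1120 in all of them.

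The genes with the most similar profile over the 4 libraries, by Euclidean distance of centred log2 CPM, were searched for the 6 Irf genes with at least 100 summed counts. Irf8 was nearest to Slc7a6 (distance 0.0797, with 58, 4, 10 and 39 counts), Cnot6 (0.109) and Arfgap2 (0.12). Irf4 was nearest to Fzd5, Adamts10 and Sptan1, the last with 534, 111, 78 and 743 counts. Irf2 had Baz1a (320, 26, 38 and 559 counts), Cdk8 and Mob3a, and Irf9 had Calr (243, 30, 55 and 240 counts), Gid8 and Rbm8a. Irf1 was nearest to Hsbp1, Rpa2 and Atp6v1e1, and Irf3 to Ranbp6, Akirin1 and Zbtb18. Among the 7 genes themselves Irf8 and Irf9 were closest (0.556) and Irf1 and Irf2 farthest apart (2.85). With 4 libraries a profile has few points, and the likeness says nothing of shared function or control.

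Other RNAs from the Irf genes were few. A circRNA antisense to Irf4, novel_circ_000393, was assigned to the minus strand of chr13:30766464-30766711, inside the Irf4 gene of GRCm38.p6 (chr13:30749233-30766981), with 4 back-spliced reads in pre-B cells and 0 in the other stages. The submitters' notes name the build mm9, but 931 of the 945 circRNAs whose source gene is in the RefSeq table of GRCm38.p6 on the same chromosome overlap that gene there, so that build was used. From Irf2bp2 came novel_circ_000794 with 4 reads and novel_circ_000277 with 2, also in pre-B cells alone. In the lncRNA table a transcript of Irf1 (ENSMUST00000128336) had 27.9, 38.4, 26.1 and 42.8 counts, which is 9.86% of the counts of this transcript and the Irf1 mRNA in pro-B cells and 27.5%, 26.4% and 21.8% in the later stages. Its counts varied less between the libraries than those of the mRNA.

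MicroRNA miR-125b is known to repress Irf4, so its sequence and its relatives with the same seed are shown. The 3 mouse miRNAs of the small RNA table that share the seed CCCUGAG are printed from RefSeq (GRCm38.p6), with the seed in capitals.
mmu-miR-125b-5p: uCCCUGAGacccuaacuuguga
mmu-miR-125a-5p: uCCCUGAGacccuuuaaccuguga
mmu-miR-351-5p: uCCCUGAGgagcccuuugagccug
In the small RNA libraries, 1 per stage, miR-125b-5p had 8063, 5656, 1308 and 1933 tags (7998, 3149, 501 and 1391 TPM), and miR-125a-5p 1893, 888, 417 and 628 tags. miR-351-5p went another way, with 1307, 2141, 3797 and 545 tags (1296, 1192, 1455 and 392 TPM). On TPM miR-125b-5p was highest in pro-B and lowest in immature B cells. With 4 stages no relation between them was computed.

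Promoter windows, from 250 bases before to 50 after the start, were matched in RefSeq for all 7 genes, with 10 windows in total. They were searched on both strands for the core of the interferon-stimulated response element (GAAANNGAA), the ETS-IRF composite core (GGAANNGAA) and the interferon gamma activated site (TTCNNNGAA, which reads alike on both strands). They are held by 8.56%, 8.24% and 8.30% of all 32851 windows. Matches lay in 3 windows, of Irf1, Irf2 and Irf8, and these letters are not in those of Irf3, Irf4, Irf5 and Irf9. All stretches with matches are shown. Irf9, which like Irf2 and Irf8 fell past 2-fold from pro-B to pre-B cells on CPM, held none. Capitals mark the matches, on the plus strand of GRCm38.p6.
Irf1, chr11:53769909-53769947: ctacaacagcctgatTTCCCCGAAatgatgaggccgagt
Irf2, chr8:46739495-46739544: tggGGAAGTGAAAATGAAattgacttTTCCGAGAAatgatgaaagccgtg
Irf8, chr8:120736172-120736228: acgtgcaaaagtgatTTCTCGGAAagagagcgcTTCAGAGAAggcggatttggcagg
Irf1 held 1 interferon gamma activated site, 90 bases before the start. Irf8 held 2, beginning 171 and 153 bases before the start. Irf2 held all of the motifs, with the composite core (from -247) overlapping the response element core (from -241) and an activated site from -224. A match is a description of letters and does not show that a factor binds there.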

How the data were processed

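The authors cleaned reads with fastp, removed rRNA reads with Bowtie2, mapped with HISAT2 and estimated transcripts with StringTie from strand-specific libraries. The mRNA and lncRNA tables hold expected counts (estimated counts, not all whole) and FPKM as deposited by the authors. For circRNAs the authors deposited read counts of back-splices found with find_circ, and RPM scaled to their total. For miRNAs the authors deposited tag counts and TPM. Counts of 5 of the 7 Irf genes were whole in each library, and others were rounded for intervals only.

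CPM, ratios, exact Poisson intervals and conditional Clopper-Pearson intervals were computed with Python 3.11.15, pandas 2.3.3 and scipy 1.17.1. TMM and median-of-ratios factors came from edgeR 4.0.16 and DESeq2 1.42.0 (R 4.3.3). A gene was past the fold at a CPM ratio of at least 2 with at least 10 counts in 1 of the libraries. Ratios against 0 are bounds against 3 counts per library. The calculations were tested on simulated counts. No paired analysis was possible because each stage has 1 library. The members, gene lists and rule for named genes (the 7 Irf genes, relatives, list members, and the 3 nearest profiles with at least 100 summed counts) were chosen with earlier results of these data known. The within-library shares and the order of examples were chosen after the values were seen. Protein sequences were not used here, and a few genes of the lists are not reported here and were left out of their counts and sums.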

Additional observations from a re-analysis of the deposited data

Results flagged for a closer look

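Outside the mRNA counts, with no control libraries, these values of the Irf genes and their relatives exceeded the 3 counts that a count of 0 allows. A count of 4 can arise from a mean of 3, so passing this limit does not set a stage apart from one with 0 counts. The antisense circRNA of Irf4, novel_circ_000393, had 4 back-spliced reads, and novel_circ_000794 of Irf2bp2 had 4, both in pre-B cells. In the lncRNA table the largest count of the Irf1 transcript ENSMUST00000128336 was 42.8 (mature B cells), that of the Irf8 transcript ENSMUST00000160594 was 4.55 (pro-B cells) and that of the Irf5 transcript ENSMUST00000171527 was 3.98 (pre-B cells). The Irf5 transcript had 2.77 counts in immature B cells and 0 in pro-B and mature B cells.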

How the results depend on the processing

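The log2 ratios of the 7 Irf genes in 4 comparisons were recomputed under 8 settings. Of 224 values 198 stayed within the counting interval of the main value and 26 moved beyond it, of which 12 on FPKM, and 0 of the called ratios changed sign. The numbers of Irf genes past 2-fold moved as follows, and the cause was not tested unless the setting itself gives it. From pro-B to pre-B cells the 1 higher gene became 0 with a count minimum of 50 or an interval that excludes 1, and 2 with CPM or FPKM ratios divided by the median ratio, and the 3 lower became 6 on FPKM and 2, without Irf9, with median-of-ratios and with CPM or FPKM ratios divided by the median ratio. From pre-B to immature B cells the 1 higher became 2 on FPKM, on FPKM divided by the median and with a fold of 1.5. From immature to mature B cells the 2 higher became 5 on FPKM and 1 with CPM divided by the median, and the 0 lower became 1 with CPM divided by the median, 3 with FPKM divided by the median and 1 with a fold of 1.5. Between mature B and pro-B cells the 1 higher became 2 with TMM, median-of-ratios, CPM divided by the median and a fold of 1.5, and 0 with a count minimum of 50, and the 0 lower became 1 with a fold of 1.5. The totals without immunoglobulin and mitochondrial genes, without the 10 most abundant genes, and no count minimum gave 8 of 8 numbers within 1.5 times the main ones. Of 200 list counts 173 stayed within 1.5 times and 27 did not, 21 of them on FPKM. The stage with the highest CPM also had the highest FPKM in 6 of the 7 genes, with Irf1 the exception. Division by the median, the total without the most abundant genes and counts of 0 set to 3 were chosen after seeing the data.

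With 1 library per stage no difference has a replicate check, and intervals cover counting error only, with each count taken as independent. The pre-B and immature libraries had 240231 and 223495 mRNA counts against 867920 and 849350 in the others, so Irf2, Irf3, Irf5 and Irf9 rest on at most 27 counts there.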
